A study of Homo sapiens with 27 samples.

Results

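The genes described here are 35 genes of the endoplasmic reticulum (ER) that fold, inspect and degrade proteins there, or that sense when folding falls behind. They were taken as a named list, by gene symbol, from a table of 20987 genes, and all 35 of the 35 symbols were found. The list holds 8 chaperones and their cofactors, 2 lectin chaperones, 7 disulfide isomerases and relatives, 6 genes of ER-associated degradation, 7 genes of translocation and export, and 5 sensors or transcription factors. The study measured poly(A) RNA in 27 libraries of 3 human prostate cancer cell lines. LNCaP is labelled androgen sensitive, and 22Rv1 and LNCaP95 are labelled castration resistant. Each line was grown for 6 days, without fresh medium, with the vehicle DMSO or with the FASN inhibitor IPI-9119 at 100 nM or 500 nM, FASN being the synthase that makes palmitate. The 9 groups of line and dose had 3 libraries each, so the 100 nM and 500 nM comparisons of a line share their 3 DMSO libraries.

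Proteins that enter the secretory pathway pass through the translocon into the ER, where chaperones such as BiP (HSPA5) bind unfolded chains, lectin chaperones hold glycoproteins, and isomerases form and rearrange disulfide bonds. Chains that do not fold are taken back to the cytosol and degraded, and folded ones leave in vesicles coated with COPII. When unfolded protein builds up, the sensors IRE1 (ERN1), ATF6 and PERK (EIF2AK3) start the unfolded protein response: IRE1 splices the XBP1 mRNA, ATF6 is cut to release a transcription factor, and PERK slows translation. ERN1 and EIF2AK3 also respond to the lipid make-up of the ER membrane, and secretory cells such as those of the prostate carry much ER.

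The promoters of these genes are known for short sequences bound by ATF6, XBP1 and their partner NF-Y. RefSeq promoter windows (GRCh38.p14, 250 bases before to 50 bases after a gene's start) were at hand for 33 of the 35 genes, and for 14172 of the genes in the table. Stretches of 8 of them are printed 5′ to 3′ on the strand of the gene, with the letters that match a motif in capitals, because few other promoters in the table hold these motifs, while the RNA responses of these 8 genes, described further on, ranged from a fall to a rise of over 2-fold. HSPA5 (chr9:125241381-125241419, minus strand), XBP1 (chr22:28800593-28800631, minus strand), HSP90B1 (chr12:103930206-103930349, plus strand) and CALR (chr19:12938374-12938412, plus strand) hold the ER stress response element ERSE, searched as CCAAT and CCACG with 9 bases between them. HERPUD1 (chr16:56932015-56932045, plus strand), SDF2L1 (chr22:21642104-21642134, plus strand) and HYOU1 (chr11:119057264-119057403, minus strand) hold ERSE-II, searched as ATTGG and CCACG with 1 base between them. DNAJC10 (chr2:182716122-182716149, plus strand) holds TGACGTGG, searched as the core of the XBP1 element UPRE, and in HYOU1 the same letters overlap the first ERSE-II match.
HSPA5: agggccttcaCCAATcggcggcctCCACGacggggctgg
XBP1: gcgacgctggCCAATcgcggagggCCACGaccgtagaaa
HSP90B1: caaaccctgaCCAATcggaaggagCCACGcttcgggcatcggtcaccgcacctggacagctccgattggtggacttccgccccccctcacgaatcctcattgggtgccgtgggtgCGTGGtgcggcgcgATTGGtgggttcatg
CALR: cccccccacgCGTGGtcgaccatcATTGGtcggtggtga
HERPUD1: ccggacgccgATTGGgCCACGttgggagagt
SDF2L1: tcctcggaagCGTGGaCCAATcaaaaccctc
HYOU1: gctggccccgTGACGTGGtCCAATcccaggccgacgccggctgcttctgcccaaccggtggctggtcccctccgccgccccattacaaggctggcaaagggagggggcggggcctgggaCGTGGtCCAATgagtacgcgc
DNAJC10: gcgcacaccgCCACGTCAacctaaacct
Both strands were searched. A gene with several listed starts was counted once, with a match in any of its windows. ERSE was present for 7 of the 33 genes (21.2%) and for 0.141% of all 14172. ERSE-II was present for 3 (9.09%, against 0.106%), and TGACGTGG for 3 (9.09%, against 1.10%). At least 1 of these motifs was present for 12 of the 33 genes (36.4%) and for 1.34% of all 14172. TGATGCAA, the core of the amino acid response element CARE that ATF4 binds, was present for 1 gene, HERPUD1 (3.03%, against 0.910%). A match describes the letters of a window, not binding.

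Libraries held 14757874 to 26578881 reads in genes. The epithelial markers KRT8 and KRT18 were above 0 in all 27 libraries, while the endothelial marker PECAM1 was at 0 in 27 of 27, the T cell marker CD3E in 25 and the fibroblast marker COL1A2 in 22. The summed value of 10 markers of blood, endothelium and fibroblasts ran from 464 to 973 in LNCaP libraries, from 309 to 439 in those of 22Rv1 and from 1543 to 2351 in those of LNCaP95. Of these, COL1A1 reached 892, LUM 1548 and VWF 376 normalised counts. Genes of mitosis set some libraries apart. Their mean log2(value + 1) was 10.51 in LNCaP DMSO replicate 1 against 8.99 and 8.80 in the other DMSO replicates of that line. In LNCaP95 it was 11.65 to 11.78 with DMSO and 9.90 to 10.46 in the treated libraries, and all 15 mitosis genes fell there at 500 nM. In replicate 3 of 22Rv1 with DMSO 18444 genes were detected, where every other library detected 14863 to 15962. Without that library, 5 of the 35 ER genes were called in 22Rv1 at 500 nM, in place of 6. At 100 nM 4 were called, in place of 6. Shares of all genes in these refits are not given here. In replicate 2 of LNCaP95 the mitochondrially encoded genes took 7.08% of counts at 100 nM and 6.47% at 500 nM, the highest shares of the 27 libraries. Nothing in the labels tells separate cultures from repeat libraries of a culture, so a p-value here measures only the spread between libraries, which may be technical. In bulk RNA, fewer cells of a type and less RNA per cell cannot be told apart. Gene-level counts do not show XBP1 splicing, ATF6 cleavage or PERK activity.

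The ER genes moved most in LNCaP95, where 26 of 35 rose and 1 fell at 500 nM, with a median log2 fold change of 0.50 against 0.03 over all genes tested. In 22Rv1, 6 rose and 0 fell (median 0.26). In LNCaP, 3 rose and 6 fell (median -0.02). A gene is called risen or fallen here at an adjusted p under 0.05 (limma on log2(value + 1), Benjamini-Hochberg over all genes tested), and all 35 genes passed the filter on low values in every comparison. The background has to be read beside these counts. Of all genes tested, 28.2% were called higher and 24.1% lower in LNCaP95, 3.47% and 3.5% in 22Rv1, and 11% and 9.83% in LNCaP, or in either direction 52.3%, 6.97% and 20.8%. At 100 nM, 25 rose and 1 fell in LNCaP95 (28.2% and 24.1% of all genes), 6 rose and 0 fell in 22Rv1 (3.19% and 3.36%), and 1 rose and 12 fell in LNCaP (13.7% and 11.6%), where calls in either direction took 52.3%, 6.55% and 25.3% of all genes in LNCaP95, 22Rv1 and LNCaP. For 22Rv1, edgeR's count test also gave 6 risen and 0 fallen at each dose. The DMSO and 500 nM libraries of all lines were also fitted together, with the line as a covariate. There 15 rose and 0 fell, against 13% and 9.86% of all genes. This fit gives 1 mean effect over the lines, named the common effect below, and does not show that the lines respond alike. Among the 15, CANX, DNAJC10, HERPUD1 and SYVN1 had log2 fold changes not above 0 in LNCaP at 500 nM.

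Counting only genes whose 3 treated and 3 DMSO libraries did not overlap, 29 were higher and 1 lower in LNCaP95 at 500 nM, where 31.6% of all genes were higher and 27.3% lower. In 22Rv1, 14 were higher and 0 lower (15.2% and 16% of all genes). In LNCaP, 5 were higher and 10 lower (19.6% and 21.3%). SEC24D was the only gene of the 35 that rose in all 3 lines at 500 nM. The genes ATF6, ERN1, SEC63, SSR2 and XBP1 fell in LNCaP and rose in LNCaP95, and no gene did the reverse. CALR, CRELD2, HSP90B1, MANF and PDIA6 were called in no line at either dose, although with the replicate number as a block CALR and MANF were called in LNCaP95. Changes of 2-fold or more were called for 6 genes in LNCaP95 at 500 nM (DNAJB9, DNAJC10, EIF2AK3, ERN1, HERPUD1 and SYVN1), for EIF2AK3 alone in LNCaP, and for none in 22Rv1. For the calls joined over lines and for the 2-fold changes, the shares of all genes are not given here, so these counts have no background.

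**Figure D1:**
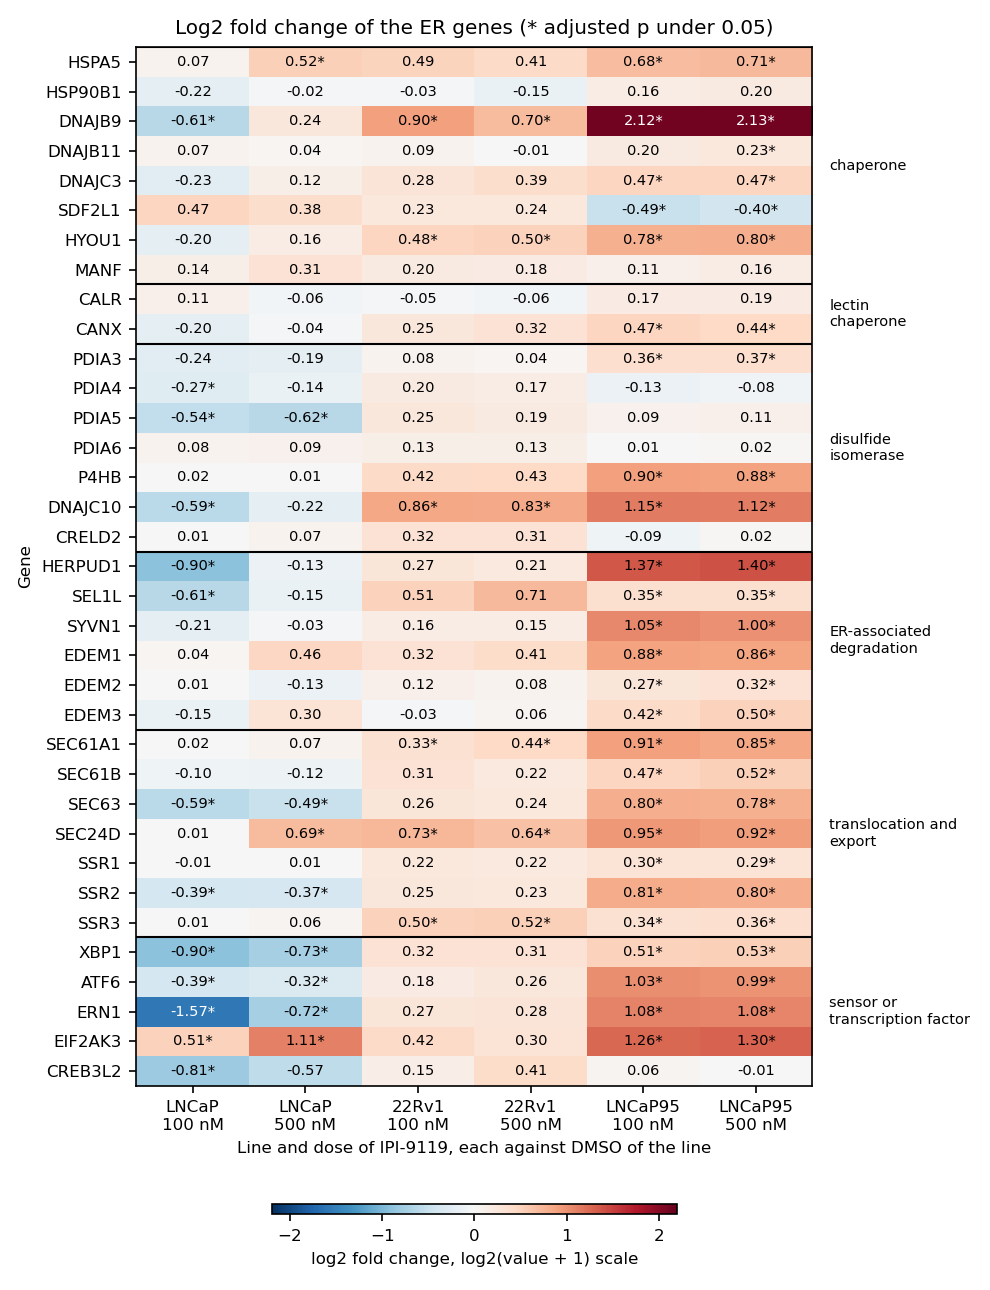
Log2 fold changes of the 35 ER genes, grouped by role, at 100 nM and 500 nM against DMSO in each line (columns), with an asterisk where the adjusted p was under 0.05. LNCaP95 columns are mostly red, up to 2.13 for DNAJB9, while the LNCaP columns hold the falls of ERN1 and XBP1.

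The sensors split between the lines. ERN1, ATF6 and XBP1 fell in LNCaP and rose in LNCaP95, and EIF2AK3 rose in both. ERN1 encodes IRE1, the kinase and nuclease that splices XBP1 mRNA. In LNCaP, normalised counts of ERN1 were 592, 625 and 646 with DMSO, 201, 164 and 276 at 100 nM and 361, 337 and 434 at 500 nM. In 22Rv1 they were 87, 197 and 128 with DMSO, 177, 104 and 212 at 100 nM and 124, 167 and 193 at 500 nM. In LNCaP95 they were 401, 297 and 287 with DMSO, 798, 588 and 696 at 100 nM and 929, 577 and 603 at 500 nM. All treated LNCaP libraries lay below the DMSO ones and all treated LNCaP95 libraries above, while the 22Rv1 groups overlapped. The log2 fold change at 500 nM was -0.72 ± 0.172 in LNCaP (SE, n = 3 libraries per group here and below; adjusted p = 0.013, limma) and 1.08 ± 0.178 in LNCaP95 (adjusted p = 0.000223). At 100 nM in LNCaP it was -1.57 ± 0.172 (adjusted p = 0.000174). The fall at 500 nM was no longer called when either DMSO replicate 3 or 500 nM replicate 2 was left out (log2 fold change -0.70 and -0.65, adjusted p = 0.051 and 0.056).

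XBP1 is the transcription factor that IRE1 activates, and it turns on chaperone and degradation genes. Its LNCaP counts were 5825, 7316 and 7985 with DMSO, 3468, 3905 and 3838 at 100 nM and 3575, 4549.6 and 4556 at 500 nM. Those of 22Rv1 were 3937, 4264 and 3748 with DMSO, 5001, 5604 and 4348 at 100 nM and 5269, 4786 and 4795 at 500 nM. Those of LNCaP95 were 7497, 8657 and 6592 with DMSO, 10799, 10587 and 10789.7 at 100 nM and 11223, 10496 and 10986 at 500 nM. The treated libraries were all below DMSO in LNCaP and all above it in the other lines. The log2 fold change at 500 nM was -0.73 ± 0.13 in LNCaP (adjusted p = 0.00287) and 0.53 ± 0.0918 in LNCaP95 (adjusted p = 0.000319), and in 22Rv1 the value of 0.31 ± 0.105 did not pass (adjusted p = 0.0944). ATF6, the membrane-bound transcription factor, had the same signs. Its LNCaP counts were 1694, 1563 and 1775 with DMSO, 1302, 1259 and 1286 at 100 nM and 1262, 1293 and 1489.7 at 500 nM. In 22Rv1 ATF6 was at 731, 1041 and 960.2 with DMSO, 1000.3, 948 and 1115 at 100 nM and 1034, 1086 and 1112 at 500 nM. In LNCaP95 ATF6 was at 1438, 1210.0 and 1472 with DMSO, 2986, 2637 and 2771 at 100 nM and 2846, 2687 and 2603 at 500 nM. LNCaP95 gained 1.98-fold (0.99 ± 0.0839 on the log2 scale, adjusted p = 1.3e-06), with no overlap between treated and DMSO libraries. The fall in LNCaP (-0.32 ± 0.089, adjusted p = 0.028) was not called when DMSO replicate 3, 500 nM replicate 1 or 500 nM replicate 2 was left out (adjusted p = 0.109, 0.114 and 0.103), or with libraries scaled to equal totals (-0.25, adjusted p = 0.0942).

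EIF2AK3 encodes PERK, the kinase that phosphorylates eIF2alpha. In LNCaP, EIF2AK3 counts were 722, 622 and 633 with DMSO, 1061, 833 and 923 at 100 nM and 1262, 1428 and 1573 at 500 nM. In 22Rv1, EIF2AK3 counts were 444, 501 and 593 with DMSO, 796, 503 and 783 at 100 nM and 672, 630.0 and 584 at 500 nM. In LNCaP95, EIF2AK3 counts were 1145, 1081 and 1034 with DMSO, 2859, 2533 and 2418 at 100 nM and 3059.6, 2567 and 2438 at 500 nM. Every treated library of LNCaP and LNCaP95 lay above its DMSO libraries, and the 22Rv1 groups overlapped. The rise at 500 nM was 2.15-fold in LNCaP (1.11 ± 0.117, adjusted p = 0.000115) and 2.46-fold in LNCaP95 (1.30 ± 0.0921, adjusted p = 3.87e-07), and in 22Rv1 the log2 fold change was 0.30 ± 0.171 (adjusted p = 0.322). The common effect was 0.90 ± 0.12 (adjusted p = 5.1e-05). CREB3L2, a membrane-bound transcription factor related to ATF6, was called in LNCaP at 100 nM (-0.81 ± 0.218, adjusted p = 0.0207), from 372, 271 and 274 with DMSO to 148, 145 and 238. That call was not made without 100 nM replicate 1 or 2 (adjusted p = 0.0645 and 0.0855). At 500 nM CREB3L2 had -0.57 ± 0.218 in LNCaP (adjusted p = 0.0878), which passed with the replicate block (0.0464).

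**Figure D2:**
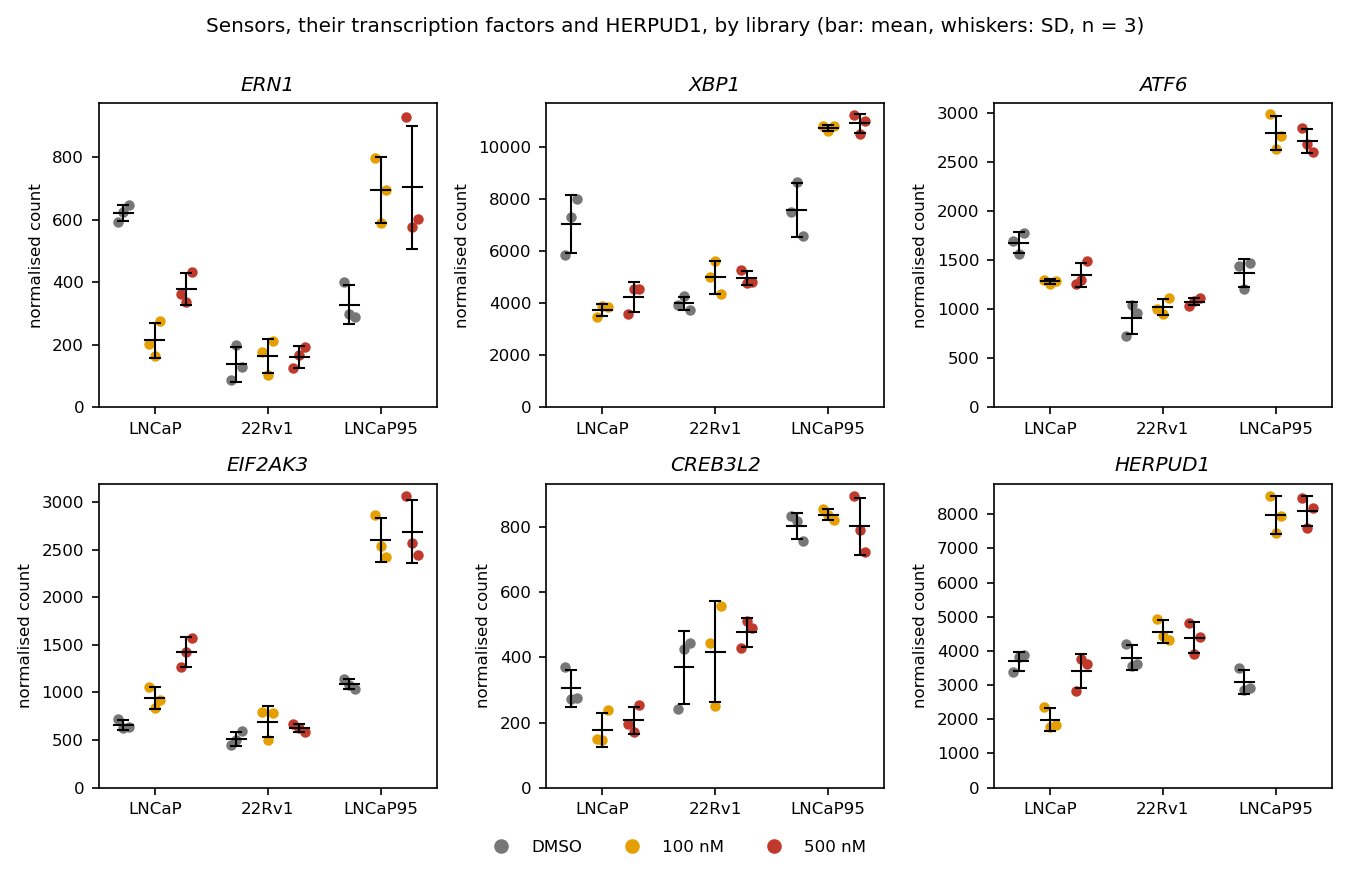
Normalised counts by library (points) for ERN1, XBP1, ATF6, EIF2AK3, CREB3L2 and HERPUD1 in each line with DMSO, 100 nM and 500 nM, with the mean (bar) and SD (whiskers) of 3 libraries. In LNCaP the treated points of ERN1, XBP1 and ATF6 lie below the DMSO points, and in LNCaP95 they lie above.

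Among the 8 chaperones and cofactors, 5 rose and 1 fell in LNCaP95 at 500 nM, 2 rose in 22Rv1 and 1 rose in LNCaP. HSPA5 encodes BiP, the main Hsp70 of the ER, which also holds the sensors inactive. LNCaP counts of HSPA5 were 29101, 25496 and 26995 with DMSO, 32934, 27539.8 and 25801 at 100 nM and 33634, 42363 and 41826 at 500 nM. 22Rv1 counts of HSPA5 were 30704, 19577 and 27213 with DMSO, 39908, 35549 and 31779 at 100 nM and 40189, 30372 and 31728 at 500 nM. LNCaP95 counts of HSPA5 were 42972, 45205 and 40495 with DMSO, 77884, 64560.1 and 63817 at 100 nM and 78726, 63755 and 67948 at 500 nM. In LNCaP only the 500 nM libraries cleared the DMSO range, and in 22Rv1 the lowest 500 nM library fell inside it. The log2 fold change at 500 nM was 0.71 ± 0.126 in LNCaP95 (adjusted p = 0.000405), 0.52 ± 0.127 in LNCaP (adjusted p = 0.0146) and 0.41 ± 0.165 in 22Rv1, where it did not pass (adjusted p = 0.157). In LNCaP the call was not made when DMSO replicate 2 or 3 (adjusted p = 0.0662 and 0.0538) or 500 nM replicate 2 or 3 (0.0673 and 0.0647) was left out. The common effect, the mean over the lines, was 0.55 ± 0.0954 (adjusted p = 0.000586).

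DNAJB9 (ERdj4), a cochaperone that brings BiP to IRE1 and to proteins bound for degradation, had the largest change of the 35 genes. Its LNCaP counts ran 495, 577 and 652 with DMSO, 467, 319 and 351 at 100 nM and 541, 727 and 785 at 500 nM. In 22Rv1 they ran 347, 329.8 and 316 with DMSO, 704, 535 and 619 at 100 nM and 639, 496 and 488 at 500 nM. In LNCaP95 they ran 791, 659 and 564 with DMSO, 3255, 2745 and 2730.1 at 100 nM and 3217, 2728 and 2791 at 500 nM. Treated libraries of 22Rv1 and LNCaP95 were all above DMSO, whereas in LNCaP those at 100 nM were below and those at 500 nM overlapped. At 500 nM DNAJB9 rose 4.36-fold in LNCaP95 (2.13 ± 0.115, adjusted p = 1.08e-07) and 1.62-fold in 22Rv1 (0.70 ± 0.137, adjusted p = 0.0106). The 22Rv1 call was lost without 500 nM replicate 1 (0.57, adjusted p = 0.053). In LNCaP it fell at 100 nM (-0.61 ± 0.175, adjusted p = 0.0262), which failed on leaving out DMSO replicate 2 or 3 (adjusted p = 0.0763 and 0.104) or 100 nM replicate 2 or 3 (0.104 and 0.0664), and at 500 nM its log2 fold change was 0.24 ± 0.175 (adjusted p = 0.352). Exons of DNAJB9 overlap those of THAP5 on the other strand by up to 183 bases in GENCODE 29, and whether the counting used strand is not stated in the labels. THAP5 went from 1010.0 ± 48.9 (SD) with DMSO to 1461 ± 97.9 at 500 nM in LNCaP95, against 671 ± 114 and 2912 ± 266 for DNAJB9. DNAJB11, PDIA3 and PDIA6 also overlap a gene on the other strand (TBCCD1, ELL3 and ATP6V1C2), so their values carry the same doubt.

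HYOU1 (ORP150), a large relative of Hsp70 that helps BiP release its nucleotide, rose in 22Rv1 and LNCaP95. LNCaP had HYOU1 counts of 9400.0, 8014 and 8039 with DMSO, 9094, 6613 and 6689 at 100 nM and 9023, 9450.0 and 9868 at 500 nM. 22Rv1 had 8188, 6691 and 7140.2 with DMSO, 11115, 9518 and 9938 at 100 nM and 10701, 9766 and 10597 at 500 nM. LNCaP95 had 16983, 15332 and 15514 with DMSO, 31111, 24126 and 27482 at 100 nM and 32453, 24912 and 26179 at 500 nM. No treated library of 22Rv1 or LNCaP95 reached down to the DMSO range, and in LNCaP the groups overlapped. The log2 fold change at 500 nM was 0.80 ± 0.12 in LNCaP95 (adjusted p = 0.000106) and 0.50 ± 0.101 in 22Rv1 (adjusted p = 0.0124). The 22Rv1 call was lost without DMSO replicate 2 (adjusted p = 0.0636) or 3 (0.0527), or 500 nM replicate 1 (0.061) or 3 (0.0582). DNAJC3 (P58IPK), a cofactor of BiP that also inhibits PERK, was at 780.2, 695 and 758 with DMSO, 612, 561 and 737 at 100 nM and 735, 756 and 955 at 500 nM in LNCaP. In 22Rv1 DNAJC3 was at 739, 1086 and 1212 with DMSO, 1419, 843 and 1467 at 100 nM and 1333, 1312 and 1243 at 500 nM. In LNCaP95 DNAJC3 was at 2305, 2443 and 2123 with DMSO, 3593, 2955 and 2969 at 100 nM and 3446, 3013 and 3044 at 500 nM. The 22Rv1 libraries spread widely, with DMSO replicate 1 and 100 nM replicate 2 lowest. DNAJC3 rose in LNCaP95 at 500 nM (0.47 ± 0.0906, adjusted p = 0.000773), and its log2 fold change was 0.39 ± 0.21 in 22Rv1 (adjusted p = 0.301) and 0.12 ± 0.129 in LNCaP (adjusted p = 0.533).

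HSP90B1 encodes GRP94, the Hsp90 of the ER, and unlike its partner BiP it was called in no line. In LNCaP HSP90B1 had 33672, 34395 and 35267 with DMSO, 30852, 29286 and 28592 at 100 nM and 30649, 36311 and 35346 at 500 nM. In 22Rv1 HSP90B1 had 71953, 54182 and 56997 with DMSO, 64969, 57579 and 55759.5 at 100 nM and 64184, 52289 and 48580.1 at 500 nM. In LNCaP95 HSP90B1 had 53469, 59668 and 56108 with DMSO, 69339, 60076 and 60190.0 at 100 nM and 69037, 59692 and 65902 at 500 nM. Treated LNCaP95 libraries were just above the DMSO ones, and at 500 nM the groups overlapped in the other lines. The log2 fold changes at 500 nM were -0.02 ± 0.0988 in LNCaP, -0.15 ± 0.138 in 22Rv1 and 0.20 ± 0.116 in LNCaP95 (adjusted p = 0.92, 0.575 and 0.165). SDF2L1, which keeps the BiP cycle running, was the only one of the 35 that fell in LNCaP95, from 2977, 3261 and 2575 with DMSO to 2153, 2265 and 2226 at 500 nM (-0.40 ± 0.0809, adjusted p = 0.00103). The treated libraries were all lower than the DMSO libraries. In a fit of all 27 libraries the call was lost (adjusted p = 0.0898). In LNCaP at 500 nM its log2 fold change was 0.38 ± 0.177 (adjusted p = 0.151, or 0.0302 with the replicate block). DNAJB11 (ERdj3), another cochaperone of BiP, rose in LNCaP95 at 500 nM by 0.23 ± 0.0844 (adjusted p = 0.0333), which failed on leaving out DMSO replicate 1 or 2 (adjusted p = 0.0729 and 0.0842) or 500 nM replicate 1 or 3 (0.116 and 0.104). At 100 nM in LNCaP95 DNAJB11 had 0.20 ± 0.0844 (adjusted p = 0.0619, or 0.00588 with the block). MANF, a secreted protein that binds BiP, had log2 fold changes of 0.31 ± 0.133 in LNCaP, 0.18 ± 0.176 in 22Rv1 and 0.16 ± 0.0728 in LNCaP95, and none passed (adjusted p = 0.121, 0.586 and 0.0746), but the last did with the block (0.0126).

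**Figure D3:**
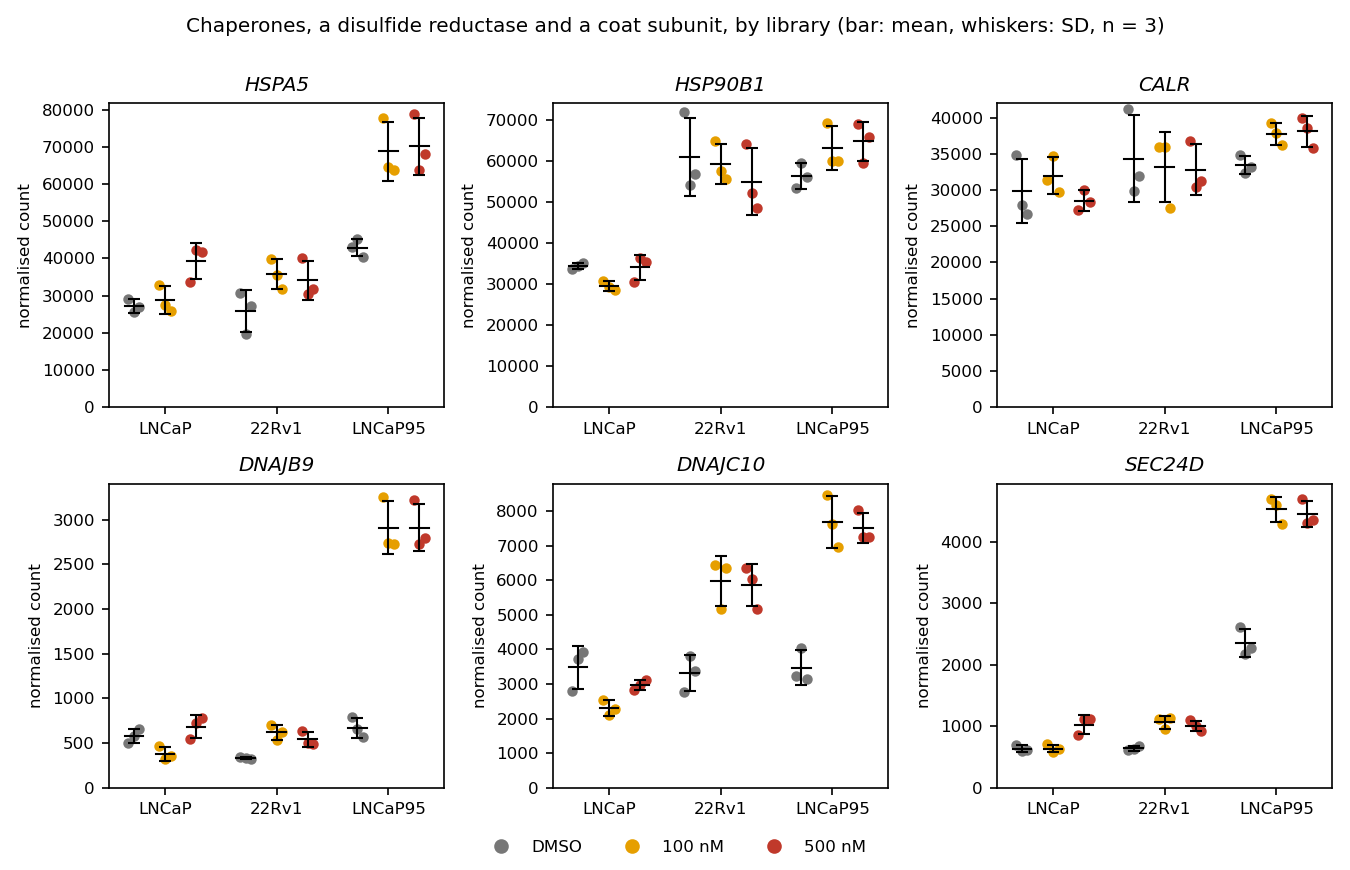
Normalised counts by library (points) for HSPA5, HSP90B1, CALR, DNAJB9, DNAJC10 and SEC24D in each line with DMSO, 100 nM and 500 nM, with the mean (bar) and SD (whiskers) of 3 libraries. The groups of HSP90B1 and CALR overlap in LNCaP and 22Rv1 at 500 nM, while DNAJB9 in LNCaP95 goes from 671 ± 114 with DMSO to 2912 ± 266 at 500 nM.

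The lectin chaperones calnexin (CANX) and calreticulin (CALR) bind sugar chains of folding glycoproteins. CALR counts in LNCaP were 34885, 27984 and 26672 with DMSO, 31396, 34757 and 29779 at 100 nM and 27206, 30019 and 28366 at 500 nM. CALR counts in 22Rv1 were 41183, 29885 and 32002 with DMSO, 35980.4, 36005 and 27536 at 100 nM and 36798, 30359 and 31269 at 500 nM. CALR counts in LNCaP95 were 34811, 32400.5 and 33187 with DMSO, 39282, 37858 and 36194 at 100 nM and 39945, 38595 and 35743 at 500 nM. The treated LNCaP95 libraries were above DMSO by a small margin, and the other lines overlapped. The log2 fold changes at 500 nM were -0.06 ± 0.119 in LNCaP, -0.06 ± 0.146 in 22Rv1 and 0.19 ± 0.0948 in LNCaP95 (adjusted p = 0.774, 0.855 and 0.117). With the block CALR passed in LNCaP95 at 500 nM (adjusted p = 0.0227) and 100 nM (0.0307). CANX rose in LNCaP95, from 11068, 12424 and 10680.3 with DMSO to 16974, 15088 and 14383 at 500 nM (0.44 ± 0.0967, adjusted p = 0.00185). Its 500 nM libraries also lay above DMSO in 22Rv1, where 0.32 ± 0.118 did not pass (adjusted p = 0.125).

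Of the 7 disulfide isomerases and relatives, 3 rose in LNCaP95 at 500 nM (P4HB, PDIA3 and DNAJC10), 1 rose in 22Rv1 (DNAJC10) and 1 fell in LNCaP (PDIA5). P4HB encodes protein disulfide isomerase itself, which is also a subunit of prolyl 4-hydroxylase and of the microsomal triglyceride transfer protein. LNCaP libraries had 27932, 24805 and 25487 with DMSO, 29239, 27572 and 22672 at 100 nM and 25943, 27048 and 25900.1 at 500 nM normalised counts of P4HB. 22Rv1 libraries had 14829, 11962 and 12467 with DMSO, 18734, 19810.1 and 14369 at 100 nM and 19027, 16483 and 17261 at 500 nM. LNCaP95 libraries had 33461, 31470.0 and 30409 with DMSO, 64418, 59651 and 53812 at 100 nM and 65195, 58846 and 51922 at 500 nM. At 500 nM the libraries of 22Rv1 and LNCaP95 were all above DMSO. P4HB rose 1.84-fold in LNCaP95 (0.88 ± 0.118, adjusted p = 4.2e-05), and its log2 fold change was 0.43 ± 0.13 in 22Rv1 (adjusted p = 0.0674) and 0.01 ± 0.11 in LNCaP (adjusted p = 0.944). DNAJC10 (ERdj5) is a reductase that cuts disulfides of proteins on their way to degradation. Its counts in LNCaP were 2784, 3734 and 3939 with DMSO, 2549, 2096 and 2263 at 100 nM and 2840.3, 2957 and 3112 at 500 nM. Its counts in 22Rv1 were 2775, 3797 and 3375 with DMSO, 6435, 5161 and 6361 at 100 nM and 6368, 6046 and 5186 at 500 nM. Its counts in LNCaP95 were 3232, 4051 and 3139.9 with DMSO, 8477, 7623 and 6964 at 100 nM and 8025, 7271 and 7251 at 500 nM. With DMSO no difference between lines was called for DNAJC10, and treated libraries were above DMSO in 22Rv1 and LNCaP95 but, at 100 nM, below it in LNCaP. The rise at 500 nM was 0.83 ± 0.132 in 22Rv1 (adjusted p = 0.00341) and 1.12 ± 0.103 in LNCaP95 (adjusted p = 2.13e-06), and the fall in LNCaP at 100 nM was -0.59 ± 0.126 (adjusted p = 0.00751).

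PDIA5, a less studied isomerase, fell in LNCaP from 1402, 1497 and 1545 with DMSO to 1024, 1164 and 888 at 100 nM and 952, 1073 and 881 at 500 nM. Neither dose overlapped DMSO, and the log2 fold change at 500 nM was -0.62 ± 0.112 (adjusted p = 0.00339). PDIA3 (ERp57), the partner of calnexin and calreticulin, rose in LNCaP95 (0.37 ± 0.096, adjusted p = 0.00553), and its treated LNCaP libraries lay below DMSO at -0.19 ± 0.0944, which did not pass (adjusted p = 0.17). PDIA4, PDIA6 and CRELD2, a secreted isomerase-like protein, were called in no line at 500 nM. Their log2 fold changes there lay between -0.14 (PDIA4 in LNCaP) and 0.31 (CRELD2 in 22Rv1). PDIA4 was called lower in LNCaP at 100 nM (-0.27 ± 0.0799, adjusted p = 0.0311), and the call was lost without DMSO replicate 2 or 3 (adjusted p = 0.0864 and 0.0779) or any 100 nM replicate (0.05, 0.0651 and 0.0501).

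All 6 genes of ER-associated degradation rose in LNCaP95 at 500 nM, and none was called in 22Rv1 or in LNCaP at that dose, where the smallest adjusted p was 0.102 for SEL1L in 22Rv1 and 0.0596 for EDEM1 in LNCaP. HERPUD1, which scaffolds the degradation complex, changed most. In LNCaP95 it went from 3492, 2853 and 2916 with DMSO to 8546, 7444 and 7952 at 100 nM and 8489, 7603 and 8195 at 500 nM. In LNCaP it was at 3386, 3828 and 3895 with DMSO, 2369, 1764 and 1845 at 100 nM and 2841, 3753 and 3619 at 500 nM. The LNCaP95 groups were far apart, and in LNCaP HERPUD1 was lower at 100 nM but overlapped DMSO at 500 nM. Its log2 fold change in LNCaP95 was 1.40 ± 0.0892 at 500 nM (adjusted p = 2.11e-07), and in LNCaP -0.90 ± 0.133 at 100 nM (adjusted p = 0.00105) and -0.13 ± 0.133 at 500 nM (adjusted p = 0.525). SYVN1 (HRD1), the ubiquitin ligase of the complex, rose 2-fold in LNCaP95, from 1179.8, 965 and 1208 to 2559, 2032 and 2122 (1.001 ± 0.109, adjusted p = 8.25e-06). Its exons overlap those of MRPL49 on the other strand, and MRPL49 was at 2282 ± 36.2 (SD) with DMSO and 2511 ± 45.0 at 500 nM. SEL1L, the ligase's adaptor, rose by 0.35 ± 0.0855 (adjusted p = 0.00414), which did not hold in the fit of all 27 libraries (adjusted p = 0.152). In LNCaP at 100 nM SEL1L was called lower, from 2451, 2545 and 2567 with DMSO to 1597, 1411 and 2000.

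EDEM1, EDEM2 and EDEM3 trim mannose from glycoproteins that fail to fold and so mark them for degradation. EDEM1 was at 658, 490.1 and 472 with DMSO, 518, 471 and 679.9 at 100 nM and 714, 694 and 799.9 at 500 nM in LNCaP. EDEM1 was at 309.7, 369.6 and 367 with DMSO, 477, 279.7 and 618 at 100 nM and 420.3, 436 and 541 at 500 nM in 22Rv1. EDEM1 was at 1209, 1126 and 1023 with DMSO, 2161, 1929 and 2071 at 100 nM and 2374, 1798 and 1963 at 500 nM in LNCaP95. At 500 nM all 3 lines had every treated library above DMSO, although only LNCaP95 was so at 100 nM. EDEM1 rose 1.82-fold in LNCaP95 (0.86 ± 0.0992, adjusted p = 1.26e-05), and did not pass in LNCaP (0.46 ± 0.157, adjusted p = 0.0596, or 0.0404 with the block) or 22Rv1 (0.41 ± 0.23, adjusted p = 0.313), but the common effect was called (0.58 ± 0.0915, adjusted p = 0.000263). EDEM3 was at 1081, 1058 and 1102 with DMSO, 1021, 716 and 1264 at 100 nM and 1349.9, 1150.1 and 1511 at 500 nM in LNCaP. EDEM3 was at 1231, 1886 and 1962 with DMSO, 1909.7, 996 and 2258 at 100 nM and 1698, 1777 and 1725 at 500 nM in 22Rv1. EDEM3 was at 1474, 1409.5 and 1267 with DMSO, 1952, 1738 and 1874 at 100 nM and 2097, 1911 and 1868 at 500 nM in LNCaP95. At 500 nM the treated libraries lay above DMSO in LNCaP and LNCaP95 and within the DMSO range in 22Rv1. EDEM3 rose in LNCaP95 (0.50 ± 0.0789, adjusted p = 0.000153, or 0.0577 in the fit of all 27 libraries), and EDEM2 rose there by 0.32 ± 0.0628 (adjusted p = 0.000935). Among the common effects, those of EDEM3 (0.29 ± 0.0879), SYVN1 (0.37 ± 0.13), HERPUD1 (0.49 ± 0.165) and CANX (0.24 ± 0.0774) had adjusted p of 0.0244, 0.0443, 0.0391 and 0.0313. EDEM3 lost its common call without LNCaP95 DMSO replicate 3 (adjusted p = 0.0524) or 500 nM replicate 1 (0.0505), and with libraries scaled to equal totals (0.051). HERPUD1 lost it without any 1 of the 6 LNCaP95 libraries of that fit (adjusted p = 0.0737 to 0.0805), 22Rv1 DMSO replicate 2 (0.0518) or 22Rv1 500 nM replicate 1 (0.0564). SYVN1 lost it without any 1 of the 6 LNCaP95 libraries (adjusted p = 0.0824 to 0.0883), or without LNCaP DMSO replicate 1, LNCaP 500 nM replicate 2 or 3, 22Rv1 DMSO replicate 2 or 22Rv1 500 nM replicate 2 or 3 (0.051 to 0.0708). CANX lost it without 22Rv1 DMSO replicate 1, 22Rv1 500 nM replicate 1 or 2, LNCaP95 DMSO replicate 1 or 3, or LNCaP95 500 nM replicate 1 or 2 (adjusted p = 0.052 to 0.0654).

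All 7 genes of translocation and export rose in LNCaP95 at 500 nM, 3 of them rose in 22Rv1 (SEC24D, SEC61A1 and SSR3), and in LNCaP SEC24D rose while SEC63 and SSR2 fell. SEC24D is a cargo-binding subunit of the COPII coat. SEC24D was at 695, 591 and 609.6 with DMSO, 702, 575 and 628 at 100 nM and 853, 1109 and 1114 at 500 nM in LNCaP. SEC24D was at 604, 636 and 681 with DMSO, 1109.7, 945 and 1138 at 100 nM and 1093, 994 and 917 at 500 nM in 22Rv1. SEC24D was at 2617, 2175 and 2263 with DMSO, 4687, 4592 and 4290.0 at 100 nM and 4688, 4295 and 4352 at 500 nM in LNCaP95. All treated groups lay above DMSO except LNCaP at 100 nM, which overlapped it. At 500 nM the rise was 0.69 ± 0.126 in LNCaP, 0.64 ± 0.109 in 22Rv1 and 0.92 ± 0.0796 in LNCaP95 (adjusted p = 0.00339, 0.00536 and 1.43e-06), and no difference between lines was called. The common effect of 0.75 ± 0.0687 had the smallest p of the 35 genes (adjusted p = 1.21e-06). SEC61A1 forms the channel of the translocon. Its LNCaP values were 9183, 7404 and 7917 with DMSO, 9249, 7865 and 7667 at 100 nM and 8308, 8492 and 8832 at 500 nM. Its 22Rv1 values were 3719, 3735 and 3809 with DMSO, 4999, 4375 and 4789 at 100 nM and 5281, 5035 and 4972 at 500 nM. Its LNCaP95 values were 10869, 8275 and 9269 with DMSO, 19797, 17461 and 16015 at 100 nM and 19445, 16654 and 14995 at 500 nM. The groups overlapped only in LNCaP. SEC61A1 rose by 0.44 ± 0.0836 in 22Rv1 (adjusted p = 0.0094) and 0.85 ± 0.122 in LNCaP95 (adjusted p = 7.51e-05). RUVBL1, whose exons overlap it on the other strand by up to 161 bases, went the other way in LNCaP95, from 5522 ± 305 to 3571 ± 334.

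SSR3, a subunit of the translocon-associated protein complex, was at 2349.7, 2063 and 2437 with DMSO, 2503, 2292 and 2110.4 at 100 nM and 2345, 2365 and 2399 at 500 nM in LNCaP. SSR3 was at 1426, 1439 and 1409.9 with DMSO, 2154, 2008 and 1888 at 100 nM and 2209.7, 2066 and 1885 at 500 nM in 22Rv1. SSR3 was at 5212, 5993 and 4615 with DMSO, 6918, 7007 and 6054 at 100 nM and 6735, 6953 and 6545 at 500 nM in LNCaP95. All treated libraries of 22Rv1 and LNCaP95 were above DMSO, and in LNCaP the groups overlapped. SSR3 rose by 0.52 ± 0.0925 in 22Rv1 (adjusted p = 0.00638) and 0.36 ± 0.0944 in LNCaP95 (adjusted p = 0.00581). SSR2, of the same complex, fell in LNCaP from 4585, 4665 and 4725 with DMSO to 3450.5, 3705 and 3629 at 500 nM, and rose in LNCaP95 from 5523, 4949 and 4712 to 9097, 8977 and 8347. Neither pair of groups overlapped, and the log2 fold changes were -0.37 ± 0.087 (adjusted p = 0.0118, or 0.0549 without 500 nM replicate 1) and 0.80 ± 0.085 (adjusted p = 6.74e-06). SEC63, which brings BiP to the translocon, fell in LNCaP from 5293, 6555 and 7114 to 4126, 4608 and 4678 (-0.49 ± 0.108, adjusted p = 0.00894). It rose in LNCaP95 from 3049.7, 2672 and 3052 to 5629, 4591 and 4872 (0.78 ± 0.0941, adjusted p = 1.83e-05). Here too the treated libraries were outside the DMSO range in both lines. SEC61B and SSR1, the remaining subunits, rose in LNCaP95 by 0.52 ± 0.111 and 0.29 ± 0.0855 (adjusted p = 0.0016 and 0.0109), and the call of SSR1 failed on leaving out DMSO replicate 3 (adjusted p = 0.0582).

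The effect of 500 nM differed between LNCaP95 and LNCaP for 18 of the 35 genes, 17 higher and 1 lower in LNCaP95, where 19.8% and 19.1% of all genes, 38.9% in either direction, were called. These differences came from 1 fit of all 27 libraries. The largest was that of DNAJB9 at 1.88 ± 0.221 (adjusted p = 5.33e-07), followed by ERN1 at 1.80 ± 0.371 (adjusted p = 0.000456), HERPUD1 at 1.52 ± 0.166 (adjusted p = 1.94e-07) and DNAJC10 at 1.34 ± 0.187 (adjusted p = 5.35e-06). ATF6, XBP1, SEC63 and SSR2, which moved in opposite directions in the 2 lines, differed by 1.30 ± 0.148, 1.27 ± 0.163, 1.27 ± 0.148 and 1.18 ± 0.151. For EIF2AK3 and HSPA5 the differences were 0.20 ± 0.201 and 0.18 ± 0.21, and neither passed (adjusted p = 0.472 and 0.527). SDF2L1 was the gene with the lower effect in LNCaP95 (-0.78 ± 0.267, adjusted p = 0.0229), a call lost without LNCaP DMSO replicate 2 or 3, LNCaP 500 nM replicate 1 or LNCaP95 DMSO replicate 2 (adjusted p = 0.056 to 0.069).

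Between 22Rv1 and LNCaP, 8 genes had a higher and 1 a lower effect in 22Rv1 (6.79% and 7.52% of all genes). XBP1 and DNAJC10 differed most, by 1.05 ± 0.163 and 1.05 ± 0.187 (adjusted p = 9.24e-05 and 0.000441), and EIF2AK3 was the gene with the lower effect (-0.80 ± 0.201, adjusted p = 0.00798). SEL1L (0.86 ± 0.273, adjusted p = 0.0348) lost its call without LNCaP DMSO replicate 2 or 3, LNCaP 500 nM replicate 1 or 2, 22Rv1 DMSO replicate 1 or any 22Rv1 500 nM replicate (adjusted p = 0.053 to 0.107). SSR3 (0.47 ± 0.129, adjusted p = 0.0156) lost it without LNCaP DMSO replicate 3 (0.051) or 22Rv1 500 nM replicate 1 (0.0506). Between LNCaP95 and 22Rv1, 7 genes had a higher and 0 a lower effect in LNCaP95 (13% and 12.4% of all genes), namely DNAJB9 (1.43 ± 0.221), HERPUD1 (1.19 ± 0.166), EIF2AK3 (0.999 ± 0.201), SYVN1 (0.85 ± 0.174), ATF6 (0.73 ± 0.148), SSR2 (0.57 ± 0.151) and SEC63 (0.54 ± 0.148).

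**Figure D4:**
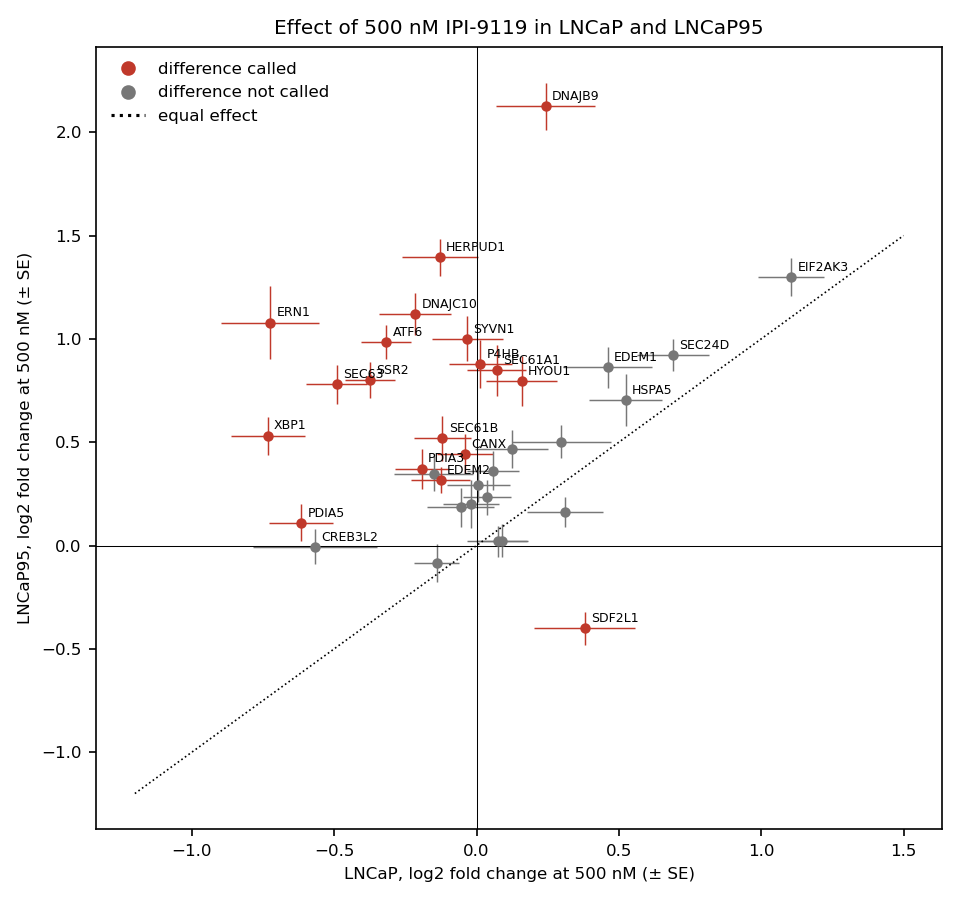
Log2 fold change at 500 nM in LNCaP (x axis) against that in LNCaP95 (y axis) for the 35 ER genes, with standard errors; the dotted line marks equal effects and red points are genes whose difference was called. Most points lie above the line. ATF6, ERN1, SEC63, SSR2 and XBP1 were called lower in LNCaP and higher in LNCaP95. Further genes also had opposite signs in the 2 lines, but were not called in both.

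Between 500 nM and 100 nM, limma called 0 of the 35 genes in each line, as did edgeR's count test, against 0.00779% of all genes in LNCaP and 0% in 22Rv1 and LNCaP95. With the replicate number as a block, no call of the 35 genes between the doses changed in LNCaP or LNCaP95. At an unadjusted p under 0.05 there were 12 genes in LNCaP, 0 in 22Rv1 and 0 in LNCaP95. The shares of all genes at this p, and with a log2 difference above 0, are not given here, so these counts have no background. In LNCaP 28 of the 35 genes had a log2 difference above 0, that is, higher at 500 nM than at 100 nM, and the median log2 difference was 0.16, against -0.01 over all genes. The largest were those of ERN1 (0.84 ± 0.172) and DNAJB9 (0.85 ± 0.175), with adjusted p of 0.247 and 0.247. Without LNCaP 100 nM replicate 1, 4 genes were called between the doses, and the share of all genes in that refit is not given here either.

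With DMSO alone the lines already differed. Against LNCaP, 20 genes were higher and 4 lower in LNCaP95 (34% and 32.5% of all genes), and 10 higher and 15 lower in 22Rv1 (39.3% and 35.5%). Against 22Rv1, 25 were higher and 3 lower in LNCaP95 (35.4% and 40.8%). Of all genes, 66.5%, 74.8% and 76.1% were called in these comparisons in either direction. The genes higher in LNCaP95 than in both other lines numbered 16 of 35, against 18.6% of all genes. SEC24D was 3.72-fold higher in LNCaP95 than in LNCaP (1.89 ± 0.106 on the log2 scale), DNAJC3 3.07-fold and PDIA4 2.86-fold, while SEC63 was lower (-1.10 ± 0.104). ERN1 was lowest in 22Rv1, with 87, 197 and 128 normalised counts against 592, 625 and 646 in LNCaP and 401, 297 and 287 in LNCaP95. Per kilobase of transcript, HSP90B1 and CALR had the highest levels in all 3 lines. HSP90B1 was at 12052 normalised counts per kilobase in LNCaP, 21359 in 22Rv1 and 19739 in LNCaP95, and CALR at 15684, 18054 and 17586. HSPA5 was at 6959, 6610 and 10975 per kilobase. At the other end, ERN1 was at 78.8, 17.4 and 41.7 and CREB3L2 at 41.2, 49.9 and 108.

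As a share of all counts, the 35 genes made up 1.10% to 1.14% with DMSO, 1.05% to 1.06% at 100 nM and 1.10% to 1.25% at 500 nM in LNCaP. In 22Rv1 the share was 1.13% to 1.44% over all 9 libraries. In LNCaP95 it was 1.77% to 1.85% with DMSO and 2.3% to 2.71% with IPI-9119, with no overlap. The level of the mitosis genes changed too, and not in the same direction as the ER genes in LNCaP95 or in LNCaP at 100 nM. In LNCaP95 their mean log2 level was 11.72 with DMSO and 10.25 at 500 nM, and in LNCaP it was 9.43 ± 0.936 (SD, n = 3) with DMSO, 10.84 ± 0.460 at 100 nM and 10.34 ± 0.130 at 500 nM. In LNCaP at 100 nM, where 12 ER genes fell, 13 of the 15 mitosis genes rose, with a median log2 fold change of 1.42. LNCaP DMSO replicate 1 had the highest mitosis level of its group. Without that library, 6 of the 35 genes rose and 7 fell in LNCaP at 500 nM. The shares of all genes in that refit are not given here, so these counts have no background. The part of the mitosis genes in these results was not tested. Across the 27 libraries, the line took a median of 83.1% of the variance of the 35 genes, the treatment 13.7% and the replicates 5.09%, against 78.0%, 9.90% and 9.14% for all genes.

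**Figure D5:**
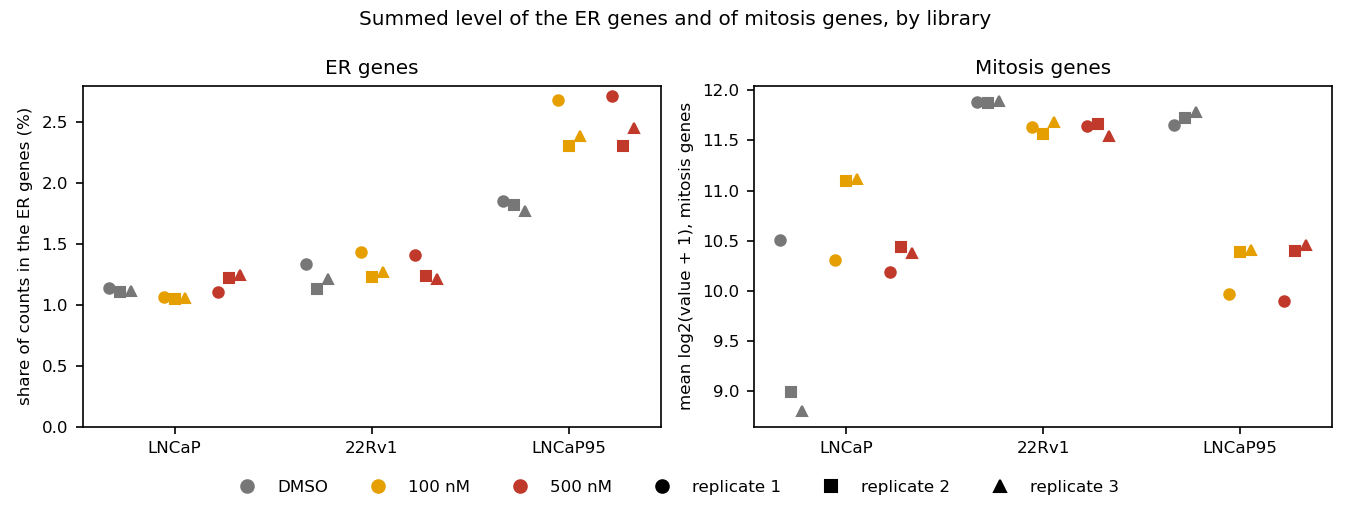
Share of all counts in the 35 ER genes (left, percent) and mean log2(value + 1) of 15 mitosis genes (right) by library, with colours for treatment and marker shapes for replicate. In LNCaP95 the treated libraries are higher on the left and lower on the right than the DMSO libraries, and LNCaP DMSO replicate 1 stands apart from the other DMSO libraries of its line on the right only.

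Other lists of ER genes were set beside these. In LNCaP95 at 500 nM, 16 of 23 chaperone cofactors and calcium-binding proteins rose and 0 fell, as did 13 of 19 genes of the translocon and signal peptidase (0 fell), 12 of 16 of COPII export and KDEL retrieval (0 fell), 13 of 23 further genes of ER-associated degradation (1 fell), 9 of 15 of N-glycan transfer and trimming (0 fell) and 7 of 15 further isomerases and redox enzymes (1 fell). SEC11C, a signal peptidase subunit, rose there by 1.49 ± 0.092, DNAJC1 by 0.99 ± 0.0724, SRPR, the receptor of the signal recognition particle, by 0.71 ± 0.0917 and DERL2, of the retrotranslocation channel, by 0.61 ± 0.105. In LNCaP at 500 nM the counts were 0 rose and 4 fell of 22 cofactors, 1 and 1 of 19 translocon genes, 2 and 1 of 16 export genes, 7 and 1 of 23 degradation genes, 0 and 1 of 15 N-glycan genes and 4 and 1 of 16 isomerases. In 22Rv1 these counts were 0 and 1 of 23, 1 and 0 of 19, 1 and 0 of 16, 1 and 0 of 23, 0 and 0 of 15 (limma; 2 at an unadjusted p under 0.05), and 3 and 0 of 16. AGR2, an isomerase-like protein of secretory epithelia, rose in all 3 lines, by 5.57 ± 0.271 in LNCaP, 2.04 ± 0.185 in 22Rv1 and 1.63 ± 0.143 in LNCaP95. In LNCaP AGR2 went from 10.5 ± 3.87 (SD, n = 3) normalised counts with DMSO to 544 ± 140.3 at 500 nM, while in LNCaP95 it was already at 6437 ± 1209 with DMSO. QSOX1, which makes disulfides, rose by 1.40 ± 0.151 in LNCaP and 0.93 ± 0.125 in 22Rv1, and its log2 fold change was 0.23 ± 0.11 in LNCaP95 (adjusted p = 0.0925).

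Of 10 genes listed for the PERK and eIF2alpha arm, 8 rose and 1 fell in LNCaP95 at 500 nM. At that dose 4 rose and 4 fell in LNCaP, and 0 rose and 2 fell in 22Rv1. Whether PERK had a part in these changes was not tested. ATF4, the transcription factor whose translation PERK favours, rose in LNCaP95 (1.0 ± 0.0873) and fell in LNCaP (-1.13 ± 0.134), and the mRNA of EIF2AK3 rose in both. PPP1R15A, which leads the phosphatase back to eIF2alpha, rose in both (0.88 ± 0.283 in LNCaP, 1.43 ± 0.2 in LNCaP95). DDIT3 (CHOP) rose in LNCaP95 (1.92 ± 0.157), and its log2 fold change was -0.27 ± 0.154 in LNCaP (adjusted p = 0.236). Of other regulators of the response, 8 rose and 3 fell of 15 in LNCaP95, 2 and 2 of 15 in LNCaP, and 1 and 1 of 16 in 22Rv1. CREB3, a relative of ATF6, rose in LNCaP95 (0.84 ± 0.0936).

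The promoter motifs were set beside the responses. In LNCaP95 at 500 nM, 7 of the 12 genes with an ERSE, ERSE-II or TGACGTGG match rose and 1 fell, with a median log2 fold change of 0.40, and 17 of the 21 without a match rose and 0 fell, with a median of 0.52. Of the 7 genes with ERSE, HSPA5, CANX and XBP1 rose there, while HSP90B1, CALR, CRELD2 and PDIA6 were not called. Of the 3 genes with ERSE-II, HERPUD1 and HYOU1 rose and SDF2L1 fell. In LNCaP 1 of the 12 rose and 1 fell, against 1 and 5 of the 21, and in 22Rv1 3 and 0 of the 12 against 2 and 0 of the 21. These counts are descriptions, with no test of the difference.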

How the data were processed

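Per the labels' protocols, poly(A) RNA of 27 cell line samples was made into libraries with a directional kit and read from both ends. The authors deposited 1 table of normalised signal, that is, counts per gene scaled by a factor for each library. Per the submitters' processing notes, the tools included STAR 2.3.1z4, featureCounts and DESeq, with genome build hg19. Whether counting used strand was not given in the sources used here. Genes that overlap another on either strand therefore have uncertain values. In 27 of 27 libraries 100% of values were whole multiples of the smallest value above 0 (tolerance 1e-06), so whole reads could be recovered, with 1 read worth 0.757 to 1.39 units. Columns of no sample numbered 0. No replicates looked like the same library: the lowest chi-square per gene between replicates was 4.98.

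Groups were taken from the sample titles. The design had assumed normalised values, so limma 3.58.1 (R 4.3.3) on log2(value + 1) stayed the main test and edgeR 4.0.16 on the recovered reads was an alternative. This scale understates the change of low genes. Genes needed a value of 10 or more in at least 3 fitted libraries, in each line for the common effect and the differences between lines. Tests were two-sided, with Benjamini-Hochberg adjustment over all genes and a threshold of 0.05. Effects within a line used the 9 libraries of the line, the common effect the DMSO and 500 nM libraries of all lines with the line as a term, and the differences between lines and the DMSO comparisons 1 fit of all 27, which gives a gene 1 spread over all lines. In all, 16 comparisons were made.

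Other settings were a pseudocount of 10, no filter, edgeR, equal library totals, a replicate block, all 27 libraries in 1 fit, and leaving out each library and each replicate number. Same-numbered LNCaP95 libraries deviated together (correlations of at least 0.128, against at most 0.0512 for other numbers), so these numbers were taken to pair them. In LNCaP same-numbered libraries deviated together between the doses (0.263 to 0.389, against at most -0.0149 for other numbers), so pairing was taken to hold there. Between DMSO and 500 nM they had 0.131 to 0.316, but other numbers reached 0.131, so the pairing is uncertain. Between DMSO and 100 nM the lowest same-numbered value was -0.00305, and pairing was not taken to hold. In 22Rv1 the lowest was -0.291 and the numbers are only names. On simulated counts with 200 genes changed, limma recovered 97% of 100 genes changed 2-fold among 12800 in LNCaP, and 100% among 13528 in 22Rv1 and 12764 in LNCaP95. These counts had the same spread for all genes and changes of 2-fold or 3-fold only. They therefore do not show how often smaller changes are found, and a gene not called here may still have changed.

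All 35 genes are named. Those given in every library are the genes with the smallest p in the common effect, at most 12, among those called there or in at least 2 lines, plus ERN1, ATF6, EIF2AK3, XBP1, HSPA5, HSP90B1 and CALR. From the other ER lists, genes with the smallest common p are named, with AGR2, ATF4 and DDIT3. The genes and lists were chosen with earlier results of these data known. Transcript lengths and overlaps came from GENCODE 29 by gene symbol, on another build than hg19, and promoters from RefSeq.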

Additional observations from a re-analysis of the deposited data

Results flagged for a closer look

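The effect of 500 nM IPI-9119 differed between lines, by limma in 1 fit of all 27 libraries, for the ER genes below. Values are differences of log2 fold changes, and adjusted p-values were under the threshold in each case.

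Against LNCaP, LNCaP95 had the higher effect for DNAJB9 (1.88), ERN1 (1.80), HERPUD1 (1.52), DNAJC10 (1.34), ATF6 (1.30), SEC63 (1.27), XBP1 (1.27), SSR2 (1.18) and SYVN1 (1.03). Smaller differences of the same sign were found for P4HB (0.87), SEC61A1 (0.78), PDIA5 (0.73), HYOU1 (0.64), SEC61B (0.64), PDIA3 (0.56), CANX (0.48) and EDEM2 (0.44). SDF2L1 had the opposite sign (-0.78).

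Against LNCaP, 22Rv1 had the higher effect for XBP1 (1.05), DNAJC10 (1.05), SEL1L (0.86), PDIA5 (0.81), SEC63 (0.73), SSR2 (0.60), ATF6 (0.57) and SSR3 (0.47), and the lower effect for EIF2AK3 (-0.80). Against 22Rv1, LNCaP95 had the higher effect for DNAJB9 (1.43), HERPUD1 (1.19), EIF2AK3 (0.999), SYVN1 (0.85), ATF6 (0.73), SSR2 (0.57) and SEC63 (0.54). With libraries scaled to equal totals, the differences of ATF6, SEL1L and SSR3 between 22Rv1 and LNCaP (adjusted p = 0.108, 0.131 and 0.0577) and of CANX between LNCaP95 and LNCaP (0.0651) were not called, and edgeR did not call that of SEL1L (0.052).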

How the results depend on the processing

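Of 213 called values of single ER genes, 213 kept their call with a pseudocount of 10, 209 with no filter, 209 with edgeR on the recovered reads, 208 with the replicate block and 200 with equal library totals, and 79 of 87 did with all 27 libraries in 1 fit. None changed sign. The cause of these losses was not tested. With the replicate block, the genes whose effect differed between 22Rv1 and LNCaP numbered 14 in place of 9, and between LNCaP95 and 22Rv1 11 in place of 7. In the common effect the block ended the calls of CANX, DNAJC10, HERPUD1 and SYVN1 (adjusted p = 0.0821, 0.0513, 0.108 and 0.098) and added that of MANF (0.0494). The blocked fits of the common effect and of these differences include 22Rv1, where the numbers are only names. In LNCaP95, where the numbers pair the libraries, the block gave 29 called genes at 500 nM (CALR and MANF added) and 28 at 100 nM (CALR and DNAJB11 added). In LNCaP at 500 nM, where the pairing is uncertain, it gave 12 called genes (5 higher and 7 lower, in place of 3 and 6). EDEM1, SDF2L1 and CREB3L2 were added there. The block changed no other call in these comparisons. With all 27 libraries in 1 fit, 3 genes were called between 500 nM and 100 nM in LNCaP, in place of 0.

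Leaving out 1 library, or all libraries of a replicate number, gave 2 to 13 called genes in LNCaP at 500 nM, 2 to 16 at 100 nM and 0 to 8 between the doses. The range was 0 to 7 in 22Rv1 at 500 nM and 1 to 10 at 100 nM, and 25 to 27 and 24 to 27 in LNCaP95. It was 6 to 16 for the common effect, 2 to 11 for 22Rv1 minus LNCaP and 4 to 10 for LNCaP95 minus 22Rv1. Among single libraries, 22Rv1 100 nM replicates 1 and 2 moved the count in 22Rv1 at 100 nM most, to 3 and 10. LNCaP 100 nM replicate 1 moved that between the doses, to 4. For the counts of called ER genes in this section, the shares of all genes are not given here. A change in such a count therefore has no background.

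Scaling libraries to equal totals moved the share of calls that were higher, over all genes, from 52.8% to 69% in LNCaP at 500 nM, 54.3% to 65.7% at 100 nM, and from 49.8% to 26.7% and 48.7% to 26.9% in 22Rv1. It moved this share from 47.4% to 21.4% for 22Rv1 minus LNCaP, 50.9% to 39.5% for LNCaP95 minus LNCaP, 51.2% to 61.6% for LNCaP95 minus 22Rv1, and 51.1% to 63.2% between the DMSO libraries of LNCaP95 and LNCaP. The median of all genes moved from 0.01 to -0.14 for 22Rv1 minus LNCaP and from 0.01 to 0.21 between those DMSO libraries. There the ER genes higher and lower became 28 and 2, in place of 20 and 4. ERN1 and CREB3L2 had the lowest values per kilobase of the 35 genes in the DMSO libraries of each line.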

Other observations

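Lists outside the ER moved at 500 nM as follows. Of 15 mitosis genes, 15 fell in LNCaP95, 3 fell in 22Rv1 and 3 rose in LNCaP, and at 100 nM 15 fell in LNCaP95, 2 fell in 22Rv1 and 13 rose in LNCaP. Of 9 mitochondrially encoded genes, 4 rose in 22Rv1, and limma called 0 in LNCaP and 0 in LNCaP95, where 0 also had an unadjusted p under 0.05, although the median log2 fold changes were 0.46 in 22Rv1, 0.45 in LNCaP and 0.75 in LNCaP95 and all 9 genes were above 0 in each line. Of the markers of blood, endothelium and fibroblasts, 3 passed the filter and rose in LNCaP, and limma called 0 of 4 in 22Rv1 (0 at an unadjusted p under 0.05) and 0 of 5 in LNCaP95 (2).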
